A study of Mus musculus with 12 samples.

Results

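The effect of pargyline on gene expression in diabetic hearts was examined by comparing diabetic mice given pargyline (D + P) with diabetic mice given vehicle (D). Arrays were assigned to the groups by their labels, with 3 arrays for D and 3 for D + P, so 6 of the 12 arrays of the series were compared. All mice were male C57BL6/J animals, with an age of 5 months on the labels, and each array carried labelled RNA from the heart muscle of a different mouse. Both groups had received streptozotocin, a toxin of the insulin-producing beta cells of the pancreas, at 50 mg/kg per day for 5 days, which serves as a model of type 1 diabetes. D + P mice then received a daily pargyline dose of 50 mg/kg over 12 weeks. The other 6 arrays, from mice without streptozotocin given vehicle (C) or pargyline (C + P), entered the same model and were used to ask whether a difference was particular to diabetic hearts. The C and D arrays lay on 1 slide and the C + P and D + P arrays on the other, so slide and pargyline cannot be told apart in D + P against D. A shift of a probe that is the same for both groups of a slide cancels in the difference between the pargyline effects of diabetic and non-diabetic hearts, which is called the interaction here. All C and C + P arrays lay in row 1 of their slide and all D and D + P arrays in row 2. An effect of the row that differs between the slides would not cancel.

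Monoamine oxidases A and B are enzymes of the outer mitochondrial membrane that break down noradrenaline, dopamine, serotonin and other amines, and the reaction releases hydrogen peroxide and an aldehyde. Pargyline blocks both enzymes irreversibly, by acting on the protein and not on its mRNA. In the heart, MAO activity is known as a source of reactive oxygen species within cardiomyocytes, and it limits how much noradrenaline reaches the adrenergic receptors.

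The study followed the IGF1 receptor pathway through microRNAs that bind its mRNAs, and the mature sequences of the ones held in RefSeq (GRCm38.p6) are shown because 5 of the genes described further on carry their target sites. The capitals mark the seed, bases 2 to 8, with which a microRNA pairs to its target. In the genome, miR-27a-3p lies at chr8:84208727-84208747 and miR-193a-3p at chr11:79712009-79712030, both on the plus strand. The third microRNA of that pathway in the study, miR-133a-3p, is named only.
miR-27a-3p: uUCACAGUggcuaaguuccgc
miR-193a-3p: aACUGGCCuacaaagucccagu

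Interferon-induced genes and immediate early genes are described at length further on, and the sequence upstream of 4 of their members is shown with the motif known for each group. Interferon-stimulated response elements hold a pair of GAAA blocks, searched here as GAAA, any 2 bases and GAAA, and cyclic AMP response elements hold TGACG. Both strands were searched in the 250 bases before each gene's start site (RefSeq, GRCm38.p6), matches are in capitals and overlapping matches run together. Each sequence reads in the direction of its gene, so a match on the other strand shows as TTTC blocks or as CGTCA. Rsad2 lies at chr12:26456453-26456702 on the minus strand, Ifit3 at chr19:34583279-34583528 on the plus strand, Bst2 at chr8:71537473-71537722 on the minus strand and Nr4a1 at chr15:101266596-101266845 on the plus strand.
Rsad2: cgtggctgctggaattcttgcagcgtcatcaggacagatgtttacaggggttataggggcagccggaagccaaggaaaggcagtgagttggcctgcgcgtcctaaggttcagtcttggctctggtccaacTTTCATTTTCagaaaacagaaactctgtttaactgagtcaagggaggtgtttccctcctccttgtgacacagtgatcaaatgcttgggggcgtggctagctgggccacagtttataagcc
Ifit3: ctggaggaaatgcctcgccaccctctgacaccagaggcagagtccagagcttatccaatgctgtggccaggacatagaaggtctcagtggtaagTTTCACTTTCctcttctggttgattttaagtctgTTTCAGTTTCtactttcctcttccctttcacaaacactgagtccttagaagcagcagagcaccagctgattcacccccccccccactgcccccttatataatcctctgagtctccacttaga
Bst2: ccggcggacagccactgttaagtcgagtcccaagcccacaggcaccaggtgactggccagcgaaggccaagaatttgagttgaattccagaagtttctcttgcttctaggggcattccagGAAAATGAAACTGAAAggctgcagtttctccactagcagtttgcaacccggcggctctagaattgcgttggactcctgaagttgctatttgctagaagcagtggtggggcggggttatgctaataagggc
Nr4a1: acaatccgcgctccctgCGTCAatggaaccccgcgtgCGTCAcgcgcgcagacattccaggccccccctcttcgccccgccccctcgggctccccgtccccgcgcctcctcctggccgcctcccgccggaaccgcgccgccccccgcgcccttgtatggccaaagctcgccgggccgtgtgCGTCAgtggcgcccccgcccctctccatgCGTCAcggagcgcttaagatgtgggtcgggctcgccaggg
The GAAA pair was present in 2.98% of 32851 promoters of that length and in 8 of the 19 interferon and MHC genes with a promoter in the table. A second motif searched, that of gamma-activated sites (TTC, any 3 bases and GAA, not in capitals above), was present in 7.02% of all promoters and in 4 of these 19 genes, and in Bst2 it overlaps the GAAA pair. TGACG was present in 17.8% of the 32851 promoters and in 16 of 29 immediate early genes. A match describes the letters of these windows only.

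No probe passed a Benjamini-Hochberg adjusted p of 0.05 between D + P and D, so percent called was 0%, and the smallest adjusted p of the 30859 probes tested was 0.075. At an unadjusted p under 0.05 there were 4099 probes (13.3%), of which 2115 were higher (6.85%) and 1984 lower (6.43%) in D + P. The arrays of the groups did not overlap for 5258 probes (17.0%), 2444 higher (7.92%) and 2814 lower (9.12%) in D + P. With the brightest probe of each of 16386 genes, the shares at an unadjusted p under 0.05 were 5.61% higher and 6.46% lower, and those without overlap were 7.18% higher and 9.72% lower. These shares are the background for every count of a gene list, where a gene stands for its brightest probe, and values of a list member are those of that probe unless another is named. Values below are log2 normalised intensities, differences are on the log2 scale, and none is a call unless it is said to have passed. The median SD within D was 0.338, against 0.168 within C. D replicate 1 had the fewest spots well above background (23556, against 24666 to 28774 on the other D and D + P arrays) and its repeated spots had a median CV of 23.2%, against 4.14% to 15.1% on the others. RNA added alike to every sample differed by 0.0812 on the log2 scale between D + P and D (exact permutation test, two-sided, p = 0.8, the smallest possible p being 0.1), and this sign turned without D replicate 1 (-0.2702) and without D + P replicate 2 (-0.0821).

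A group of probes of moderate or low intensity showed the largest differences, and most were dim in the lower group. The genes of this paragraph and the next were named for groups without overlap and an unadjusted p under 0.01. Their lack of overlap is therefore no result. Smg1, a kinase of nonsense-mediated mRNA decay, was at 4.53, 4.47 and 3.32 in D and 6.28, 6.19 and 5.84 in D + P. All D arrays were below all D + P arrays, and since its probe was well above background on no D array, the difference was at least 1.64-fold (adjusted p = 0.099). The 3 other Smg1 probes had the same sign, and 2 of them, measured on all D arrays, were higher by 0.60 and 0.64. Lta4h, a leukotriene-forming hydrolase, was higher by 1.68 ± 0.28 (SE, adjusted p = 0.122), but its brighter probe was lower by 0.24. Dgcr8, the RNA-binding partner of Drosha in microRNA processing, was at least 1.24-fold higher, and only 1 of its 3 other probes had that sign. Pdzd2 and Sptan1, the latter a spectrin of the membrane skeleton, were higher by 1.74 ± 0.55 and 1.66 ± 0.43. Their smallest differences under the alternatives run were 0.76 and 0.81. All of their other probes had the same sign but smaller differences. Those well above background on all D and D + P arrays were higher by 0.27 and 0.14 for Pdzd2 and by 0.33 and 0.24 for Sptan1. Another 3 probes were well above background on no D array, so only bounds hold, of at least 1.5004-fold for 3110021N24Rik and at least 1.48-fold for Pou1f1 and for Gm20555. Gm31251, 5730480H06Rik, Zeb2 and Ccar1 completed the naming rule, with differences of 1.66 to 1.89 and D replicate 3 the lowest array in each. Under the alternatives run their smallest differences were 1.56, 0.45, 0.78 and 0.75, in that order. The other Ccar1 probe, well above background on all D and D + P arrays, differed by 0.07 ± 0.16. Of the 4 other Zeb2 probes 2 had the opposite sign (-0.91 and -0.21), and the others were higher by 0.14 and 0.82.

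On the lower side, Npr3, the clearance receptor of natriuretic peptides, was at 6.98, 5.86 and 6.89 in D and 5.45, 4.01 and 4.74 in D + P. The difference was at least 2.73-fold with the processing used (adjusted p = 0.213), and -0.69 at its smallest under the alternatives run. Both other Npr3 probes were lower too, by 0.42 and 0.41. P4hb, a protein disulphide isomerase of the endoplasmic reticulum, was lower by 1.68 ± 0.38, but in C + P against C the same probe was lower by 1.24. Myl10, a myosin light chain, was at least 1.69-fold lower in D + P with the processing used, and non-diabetic hearts showed the same sign (-1.38). Its smallest D + P against D difference under the alternatives run was -0.53. Mdm4, an inhibitor of p53, was lower by 1.60 ± 0.30 (adjusted p = 0.126), and all 5 of its other probes were higher. Mtm1, the phosphatase myotubularin, was lower by 1.97 ± 0.57 with its 3 other probes higher. Olfr187, Aff3 and Clnk were well above background on no D + P array and were at least 2.13-fold, 2.08-fold and 2.09-fold lower with the processing used. Their smallest differences under the alternatives run were -0.59, -0.55 and -0.55. The 1 other Aff3 probe measured on all D and D + P arrays was higher by 0.13. Tmem267, Nupr1l, Gm14051 and Gm33104 completed the list, with differences from -2.29 to -1.37, and of -0.78, -0.62, -0.94 and -0.64 at their smallest under the alternatives run. Of these, Gm14051 was well above background on all D and D + P arrays, at 8.78, 8.70 and 8.62 in D and 6.85, 7.53 and 7.54 in D + P.

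Neither monoamine oxidase mRNA differed beyond the spread between mice. Maoa (probe at chrX:16263318-16263377, mm9) was at 5.29, 5.88 and 5.81 in D and 6.07, 5.40 and 4.76 in D + P, a difference of -0.24 ± 0.32 (adjusted p = 0.754) whose sign turned without D + P replicate 3, its lowest array (0.08), and with the normexp background correction (0.09). Maob (chrX:16286427-16286486) was at 10.001, 9.93 and 9.82 in D and 9.23, 9.77 and 9.83 in D + P, lower by 0.31 ± 0.18 (adjusted p = 0.478). The groups overlapped for both genes, and 1 low array, D + P replicate 1, carried most of the Maob difference, which was -0.12 without it, and the other Maob probe differed by 0.03. In C + P against C, Maob was lower by 0.54. Of the 23 tested genes for monoamine oxidases, other amine-degrading enzymes, removal of their products, and amine synthesis and transport, 1 was higher and 2 were lower at an unadjusted p under 0.05, with a median of -0.16 against -0.02 over all genes. That median was -0.0397 without D + P replicate 2 and -0.0367 with the normexp correction, which for gene lists was an alternative chosen after seeing the data. The 2 lower ones were amine transporters. Slc22a3, the extraneuronal carrier that takes amines up into muscle, was at 6.91, 7.04 and 7.17 in D and 6.69, 6.69 and 6.54 in D + P, without overlap. Slc18a2, which loads amines into vesicles, was at least 1.35-fold lower with overlapping arrays, and was well above background on no D + P array. That bound is for the processing used, and its smallest difference under the alternatives run was -0.10. Slc29a4, another low-affinity amine carrier and the member that was higher (0.71 ± 0.31), was well above background on none of the D and D + P arrays.

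**Figure D1:**
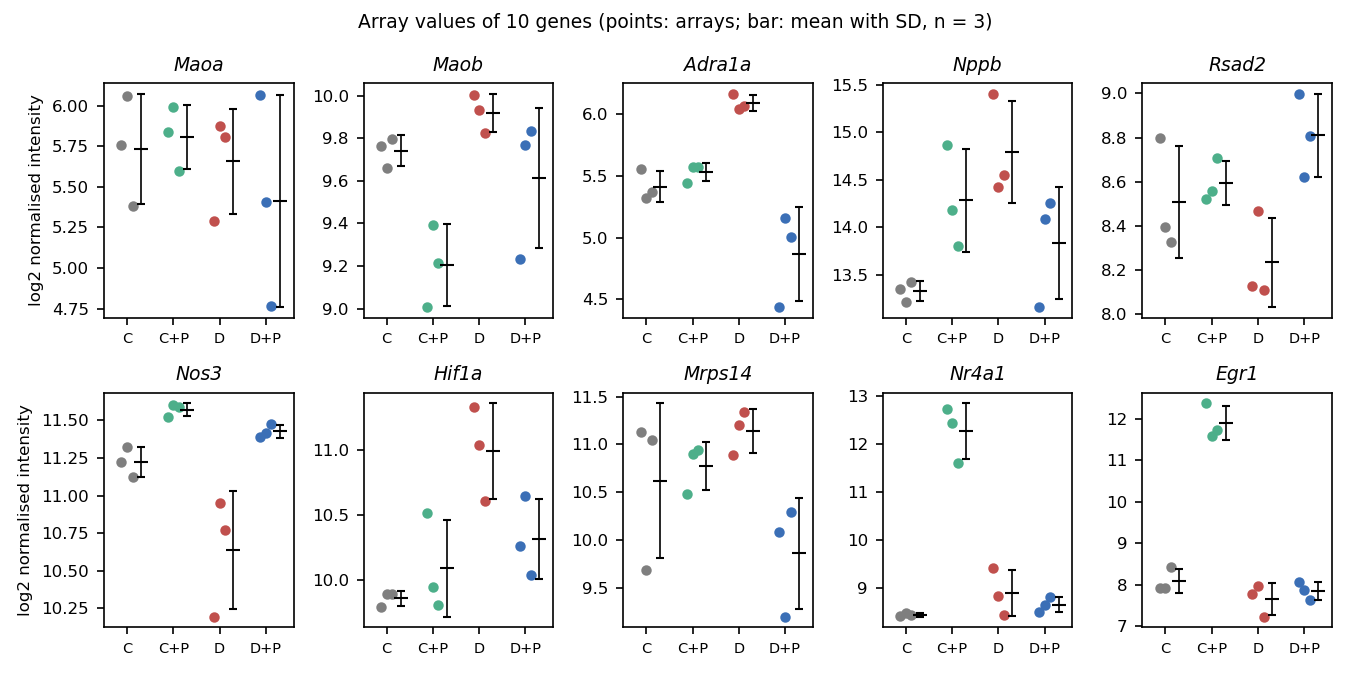
Log2 normalised intensity of 10 genes on each of the 12 arrays (points) with the group mean and SD (bars, n = 3), for C, C + P, D and D + P, on axes that do not start at 0. The D + P arrays of Adra1a lie between 4.44 and 5.16, below the 6.04 to 6.17 of D, whereas Nr4a1 and Egr1 are high in C + P only and Maoa overlaps between D and D + P.

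Among genes that receive the amine signal, Adra1a stood apart. It encodes the alpha-1A adrenergic receptor, a receptor for noradrenaline and adrenaline on cardiomyocytes, and its probe lies at chr14:67346728-67346787 (mm9). Adra1a was at 6.17, 6.04 and 6.06 in D and 4.44, 5.16 and 5.01 in D + P. The D arrays were close together and above every other array, and the C and C + P arrays, from 5.32 to 5.57, lay between D and D + P. The difference of -1.22 ± 0.19 had an adjusted p of 0.111, and the interaction was -1.34 (adjusted p = 0.47). With the normexp correction the difference was -0.45. The probe was well above background on all 3 D arrays but on 1 D + P array. Of the 29 adrenergic genes tested, 2 receptors were lower at an unadjusted p under 0.05, close to the background of 6.46%, and none was higher. The second, Adra2b, was at 9.70, 8.44 and 8.91 in D and 8.74, 8.23 and 8.16 in D + P, with overlap and with D replicate 1 the highest. G proteins and adenylyl cyclases were mostly above 0 (7 of 9, median 0.17), including Adcy6, one of the main cyclases of cardiomyocytes (0.48 ± 0.26), and kinases, arrestins and phosphodiesterases mostly below (5 of 15 above 0).

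Interferon-induced and MHC genes had a median difference of 0.34 over 27 tested members. At an unadjusted p under 0.05, 8 members were higher and 0 lower, 9 did not overlap and were higher, and 22 of 27 differences were above 0, compared with 48.2% over all genes. None passed the adjusted threshold. Mx2 and Rsad2 are antiviral effectors. Mx2 was at 6.61, 6.11 and 5.32 in D and 7.17, 6.90 and 6.88 in D + P, and Rsad2 at 8.13, 8.47 and 8.11 in D and 8.999, 8.62 and 8.81 in D + P, neither with overlap. Tap1, which carries peptides to MHC class I, was at 6.89, 8.12 and 8.03 in D and 8.68, 8.27 and 8.21 in D + P, where the low value of D replicate 1 made most of the difference. Also among the 8 were Ifi44 (0.92), Ifit3 (0.53), Bst2 (0.49) and Irf7 (0.49), the regulator of interferon production. Genes of MHC class II and its chaperone did not follow, with differences of -0.36 for H2-Eb1, -0.08 for H2-Aa, -0.07 for H2-Ab1 and -0.05 for Cd74.

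Across arrays, the median deviation of the interferon and MHC genes from their means was -0.378, -0.0499 and -0.192 in D and 0.171, 0.0457 and 0.111 in D + P, so D replicate 1 was the lowest. Without D replicate 1 the median difference was 0.22, with 5 members higher and 1 lower, and leaving out each of the 6 arrays in turn gave 0.22 to 0.38. Under the normexp correction it was 0.25 with 6 higher and 0 lower. In non-diabetic hearts the median of C + P against C was -0.16, and the median of the interaction was 0.49, with 4 members higher and 0 lower at an unadjusted p under 0.05 (4.12% and 2.91% of all probes). Of the 8 members higher at an unadjusted p under 0.05, promoters of 6 were in the table, the 3 shown above held the GAAA pair, and Bst2 alone held the gamma-activated motif.

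**Figure D2:**
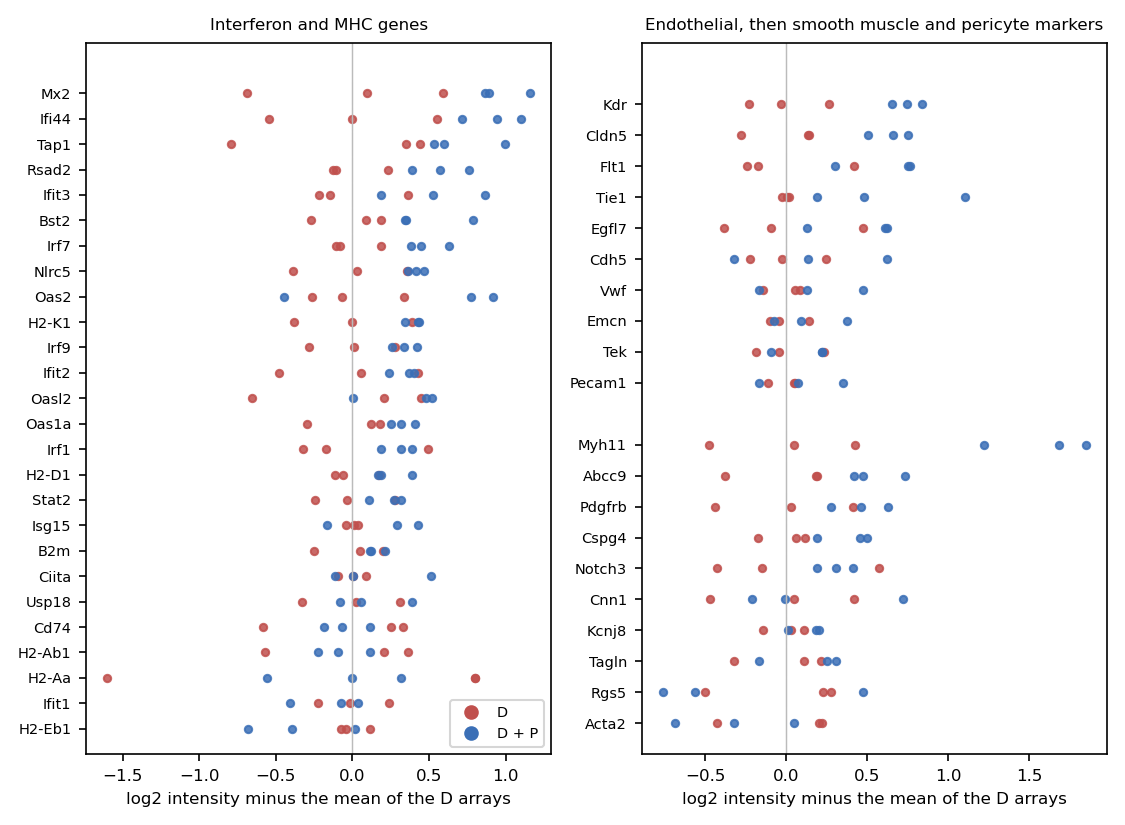
Log2 intensity of each D and D + P array relative to the mean of the 3 D arrays, for interferon and MHC genes (left), and 10 endothelial and 10 smooth muscle and pericyte markers (right), 1 row a gene ordered by the difference. The D + P points of the upper rows lie to the right of the D points, and D replicate spread is wide, as for H2-Aa.

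Markers of vessel cells had differences above 0 as well. All 10 endothelial markers had a difference above 0 (median 0.30, with 0.23 without D replicate 3 and 0.45 without D + P replicate 2), 4 at an unadjusted p under 0.05 and 3 without overlap, and their summed normalised intensity was 31220 to 42680 in D and 42870 to 53470 in D + P. Kdr, the main receptor of vascular endothelial growth factor, was at 11.98, 12.47 and 12.18 in D and 13.05, 12.86 and 12.96 in D + P. The groups did not overlap, and the difference was 0.75 ± 0.18 (adjusted p = 0.176). Flt1, its relative (0.61), Tie1 (0.59) and Cldn5, a claudin of endothelial tight junctions (0.64), were the other 3. The markers Pecam1 (0.08), Tek (0.12), Emcn (0.13), Vwf (0.14) and Cdh5 (0.14) differed little, and Egfl7 was higher by 0.45 ± 0.26 with overlap. Cldn5 was also higher in C + P against C, by 1.42. Nos3, the endothelial nitric oxide synthase (chr5:23890038-23890097, mm9), was at 10.19, 10.95 and 10.77 in D and 11.39, 11.42 and 11.48 in D + P. Its D + P arrays were close together and above every D array, and the difference of 0.79 ± 0.19 (adjusted p = 0.176) was 0.56 without D replicate 1. In C + P against C it was 0.35, and the interaction came to 0.44 ± 0.27 (adjusted p = 0.75).

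Of 10 smooth muscle and pericyte markers, 8 were above 0 (median 0.24, and 0.36 without D + P replicate 3). Myh11, smooth muscle myosin, was at 5.94, 6.46 and 6.83 in D and 8.10, 8.26 and 7.63 in D + P, without overlap (1.59 ± 0.32, adjusted p = 0.157). Abcc9, the sulphonylurea receptor of vascular potassium channels, was higher by 0.54, and Acta2 (-0.32) and Rgs5 (-0.28) had the opposite sign. The tissue is a mixture of cells, so more cells of a type and more RNA per cell cannot be told apart. Endothelial markers and interferon genes both had medians above 0, and the median deviation of the endothelial markers was 0.0122, -0.0876 and -0.184 in D and 0.303, 0.0747 and 0.345 in D + P. D replicate 1 was the highest D array for these markers and the lowest for the interferon genes, whereas D replicate 2 was above D replicate 3, and D + P replicate 2 the lowest D + P array, in both lists. The part of endothelial cells in the interferon result was not tested. The summed level of ventricular cardiomyocyte markers was 855400 to 908700 in D and 787900 to 916300 in D + P, all 10 being well above background, which fits the label of heart muscle. With scaling to the 75th percentile in place of quantile normalisation the endothelial median was 0.20, with 2 members at an unadjusted p under 0.05.

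**Figure D3:**
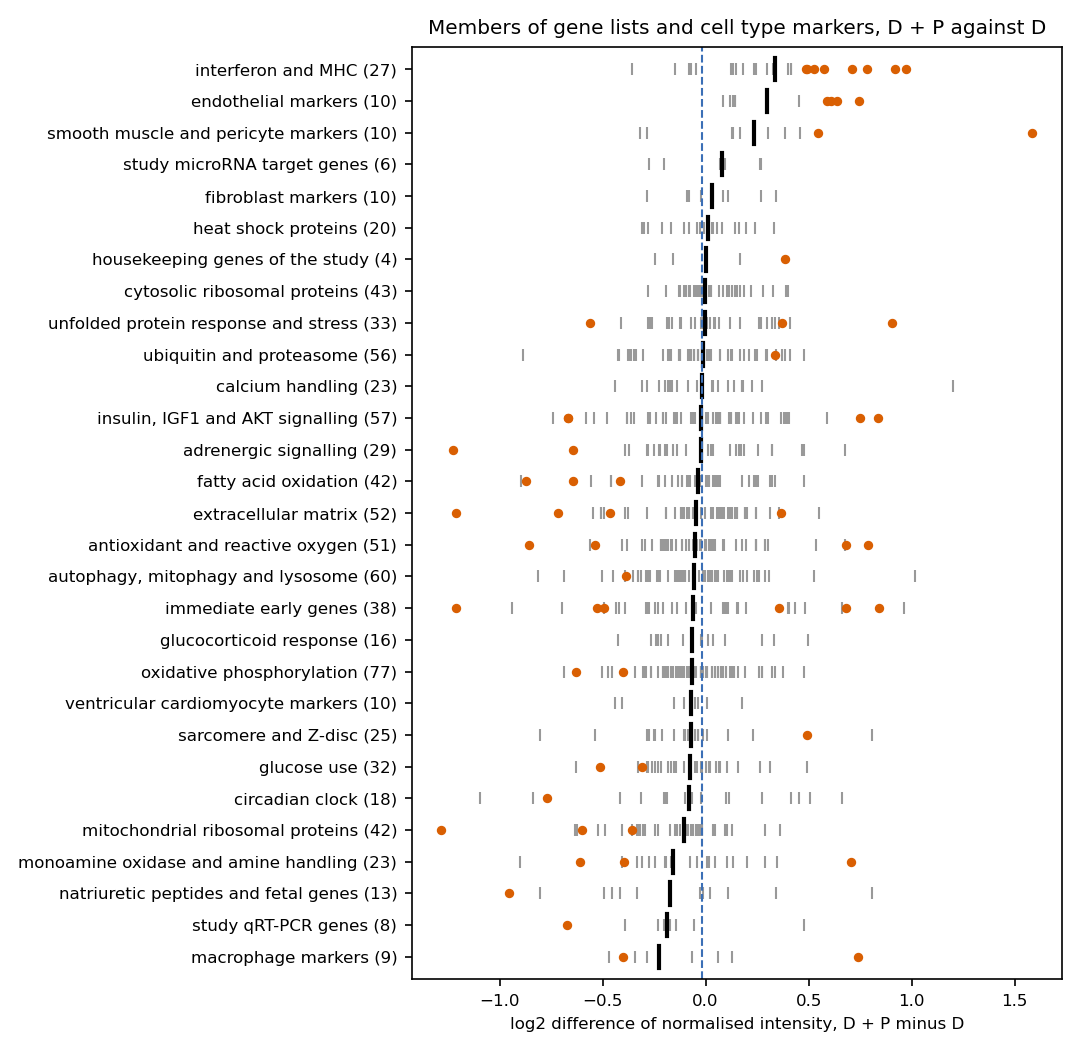
Log2 difference of D + P minus D for each tested member of 24 gene lists and 5 lists of cell type markers (number of members in brackets), with orange points at an unadjusted p under 0.05, grey ticks for the other members, black bars for list medians and a dashed line for the median of all genes. Interferon and MHC genes (0.34) and endothelial markers (0.30) have the highest medians, and most lists lie within 0.1 of the line.

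The insulin, IGF1 and AKT list held 57 tested genes, of which 2 were higher and 2 lower at an unadjusted p under 0.05 (median -0.02, from -0.06 without D replicate 3 to 0.01 without D + P replicate 1). That median was -0.12 with the 75th percentile scaling and 0.07 with the mean of all probes of a gene. The receptor Igf1r, the target of miR-133a-3p in the study, was at 8.27, 8.44 and 8.47 in D and 8.80, 8.68 and 8.52 in D + P. The arrays did not overlap, by a small margin, and the difference was 0.27 ± 0.18 (adjusted p = 0.518), and from 0.06 to 0.35 under the alternatives run. The 1 other Igf1r probe that was well above background on all 6 arrays had the opposite sign (-0.18 ± 0.18), and 2 dimmer ones were higher by 0.39 and 0.49. Of the miR-27a-3p targets, Elk1, a transcription factor downstream of ERK, was higher by 0.26 ± 0.14 without overlap, but its other probe was lower by 0.51. Inpp4a, a phosphatase that removes a PI3 kinase product, was lower by 0.28 ± 0.21 with its 3 dimmer probes higher, by 0.35 to 0.92, and Rps6ka2, a kinase of the RSK family, differed by 0.09 ± 0.28. Of the miR-193a-3p targets, Mapk10, the JNK3 kinase, was at 9.49, 9.62 and 9.63 in D and 9.44, 9.37 and 9.33 in D + P, lower by 0.20 ± 0.14 with both other probes higher, and Grb10, an adaptor that restrains the insulin and IGF1 receptors, differed by 0.07 ± 0.21. Both other Grb10 probes, dimmer but well above background on all 3 D + P arrays, were higher there, by 0.53 ± 0.23 (adjusted p = 0.362) and 1.13 ± 0.31 (adjusted p = 0.206), and were so on 2 and 1 of the D arrays. None of these 6 genes passed the adjusted threshold with any of its probes. Further down the pathway, Rheb, the GTPase that activates mTORC1, was at 14.29, 14.92 and 14.71 in D and 14.97, 15.54 and 15.93 in D + P (0.84 ± 0.26, without overlap), whereas its other probe was lower by 0.19. Pik3cb, the beta catalytic subunit of PI3 kinase, was lower by 0.67 ± 0.21 without overlap, but its other probe was higher by 0.27. Prkab1, a regulatory subunit of AMPK, was lower by 0.67 ± 0.27 without overlap, and its other probe differed by 0.00.

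Autophagy, mitophagy and lysosome genes were examined because the study links MAO to autophagy. Of 60 tested, 0 were higher and 1 was lower at an unadjusted p under 0.05, and 3 higher and 7 lower did not overlap (median -0.06, and -0.03 without D + P replicate 1). The median was -0.16 with the 75th percentile scaling and -0.02 with the mean of all probes of a gene. The lower one was Atp6v1a, a subunit of the pump that acidifies lysosomes, at 9.52, 9.39 and 9.44 in D and 9.04, 8.90 and 9.25 in D + P. Atg16l1, which directs LC3 lipidation to the growing autophagosome, was at 10.82, 11.01 and 10.08 in D and 11.33, 11.87 and 11.76 in D + P. Its groups did not overlap (1.02 ± 0.47, adjusted p = 0.386), but another probe differed by only 0.03. Atg9a, the membrane carrier of autophagosome formation, was higher by 0.52 ± 0.26. For protein quality control, 1 of 56 ubiquitin and proteasome genes was higher at that threshold, namely Nedd4, a ubiquitin ligase (0.34 ± 0.14, with all 4 other probes of the same sign), and 0 were lower. In the unfolded protein response, Manf, a secreted factor of endoplasmic reticulum stress, was at 8.09, 9.06 and 9.16 in D and 9.63, 9.98 and 9.42 in D + P. The difference of 0.91 ± 0.31 was 0.57 without D replicate 1, and its other probe had the opposite sign. Sel1l, of the degradation of misfolded proteins, was higher by 0.37 ± 0.14, with its other probe, not well above background, lower by 0.91, and Hyou1, a chaperone, was at least 1.09-fold lower, with the probe well above background on 1 D array and no D + P array. None of 20 heat shock proteins was past an unadjusted p of 0.05.

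Lists of mitochondrial genes had medians below 0 whose size depended on the scaling. In oxidative phosphorylation, 2 of 77 were lower and 0 higher at an unadjusted p under 0.05, a share below the background of 6.46%, and 10 were lower and 0 higher without overlap, with 29 above 0 and a median of -0.07. D replicate 1 had a lower median deviation (-0.150) than any D + P array (-0.0672 to -0.0346), and leaving out single D or D + P arrays gave medians of -0.127, without D replicate 1, to -0.0276, without D replicate 3, with 13 to 33 genes above 0. Under the 75th percentile scaling the median was -0.18 and 6 were lower, while the median of all probes was -0.02, and with the normexp correction and with the mean of all probes of a gene it was -0.04. Ndufa5 of complex I was at 16.91, 16.64 and 16.75 in D and 16.48, 16.27 and 16.35 in D + P. The groups did not overlap, the difference was -0.40 ± 0.16 (adjusted p = 0.309), and its other probe was lower by 0.29. Sdhd, a membrane anchor of complex II, was lower by 0.63 ± 0.24 with overlap. Of 42 mitochondrial ribosomal proteins 8 were above 0 (median -0.10, with -0.16 without D replicate 1 and -0.26 under the 75th percentile scaling), and 3 were lower and 0 higher at that threshold. Mrps14 was at 10.89, 11.20 and 11.34 in D and 10.08, 9.20 and 10.30 in D + P, lower by 1.28 ± 0.39 without overlap (adjusted p = 0.233). Mrpl1 (-0.60) and Mrpl18 (-0.36) were the others, and Mrpl18 was also lower in C + P against C, by 0.34. Of the 43 cytosolic ribosomal proteins none was past an unadjusted p of 0.05, and their median of 0.00 was -0.15 under the 75th percentile scaling and ran from -0.0355 to 0.0817 without single arrays.

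For fuel use, the counts of lower genes were close to the background of 6.46%. Of 42 fatty acid oxidation genes, 3 were lower and 0 higher at an unadjusted p under 0.05 (median -0.04, and 0.05 without D + P replicate 1). That median was -0.15 with the 75th percentile scaling and -0.08 with the mean of all probes of a gene. Ehhadh, a peroxisomal enzyme of beta oxidation, was at 7.70, 7.80 and 7.72 in D and 6.98, 7.58 and 6.04 in D + P, without overlap, and the difference of -0.87 ± 0.33 was -0.46 without D + P replicate 3. Etfdh, which passes electrons from beta oxidation to ubiquinone, was lower by 0.64 ± 0.25, but its other probe, measured on all 6 arrays, differed by 0.05 ± 0.22. Plin5, a lipid droplet protein, was lower by 0.41 ± 0.19, while its other probe, also measured on all 6 arrays, had the opposite sign (0.27 ± 0.32). Of 32 genes of glucose use, 2 were lower and 0 higher at that threshold, and 6 were lower without overlap (median -0.08, from -0.14 without D replicate 3 to -0.04 without D + P replicate 2). It was -0.21 with the 75th percentile scaling, and its sign turned with the mean of all probes of a gene (0.01). Pdhb, the beta subunit of pyruvate dehydrogenase, was at 15.12, 15.16 and 15.14 in D and 14.83 on each of the 3 D + P arrays, which gave -0.31 ± 0.13 (adjusted p = 0.347). The spread within both groups was far below the difference for this probe, but of its other probes 1 of 2 had that sign. Mpc2, a subunit of the mitochondrial pyruvate carrier, was lower by 0.51 ± 0.19 with its dimmer probe higher by 0.55.

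Genes that form or remove reactive oxygen were examined because the MAO reaction releases hydrogen peroxide. Of 51 tested, 2 were higher and 2 lower at an unadjusted p under 0.05 (median -0.05, from -0.09 without D replicate 1 to -0.0047 without D replicate 3). The median was -0.15 with the 75th percentile scaling and -0.0093 with the normexp correction, and below 0 under all 9 alternatives run. The higher ones were Nos3 and Xdh, xanthine dehydrogenase, another source of reactive oxygen, at 9.67, 9.48 and 9.17 in D and 10.14, 9.86 and 10.35 in D + P. Its groups did not overlap, and its other probe was higher by 0.65. Nos1, the neuronal nitric oxide synthase, was lower by 0.86 ± 0.37 with overlap. Superoxide dismutases, catalase and peroxidases had a median of -0.03, and thioredoxin and glutathione genes one of -0.14 (3 of 14 above 0). Prdx4, a peroxiredoxin of the endoplasmic reticulum, was at 9.09, 9.32 and 9.35 in D and 9.02, 9.06 and 9.07 in D + P, just without overlap (-0.20 ± 0.14, adjusted p = 0.551).

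Genes of cardiac load were examined through natriuretic peptides and fetal genes, of which 1 of 13 was lower and 0 higher at an unadjusted p under 0.05. The median of -0.17 was -0.36 without D + P replicate 2 and -0.07 without D + P replicate 3, and it was -0.32 with the 75th percentile scaling and -0.30 with the normexp correction. Nppb, the brain natriuretic peptide released by stretched ventricles, was at 15.40, 14.42 and 14.54 in D and 13.16, 14.09 and 14.25 in D + P. The groups did not overlap, and the difference was -0.96 ± 0.36 (adjusted p = 0.298), with the other probe lower by 0.42. D replicate 1 was the highest and D + P replicate 1 the lowest array, and the difference was -0.65 without the former and -0.61 without the latter. In non-diabetic hearts Nppb was higher by 0.95 with pargyline, which gave an interaction of -1.91 (adjusted p = 0.57). Nppa, the atrial peptide, overlapped between D and D + P (-0.17 ± 0.27). Acta1, skeletal alpha-actin, was lower by 0.81 ± 0.41 with overlap, and higher by 0.71 in C + P against C. Nmrk2, a kinase of NAD synthesis, was at 9.37, 8.86 and 8.90 in D and 8.76, 8.76 and 8.60 in D + P, against 7.14 to 7.28 in C and 8.38 to 8.85 in C + P. Its difference in D + P against D was -0.33 ± 0.18, against 1.39 in C + P against C, and the interaction was -1.73 (adjusted p = 0.23).

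In the contractile apparatus, 5 of 25 sarcomere and Z-disc genes were above 0 (median -0.07, from -0.14 without D replicate 1 to -0.03 without D replicate 2), but with the mean of all probes of a gene 13 were (median 0.01), and with the 75th percentile scaling the median was -0.16. None of 23 calcium handling genes was past an unadjusted p of 0.05. Atp2a2, the calcium pump of the sarcoplasmic reticulum, was at 16.17, 16.32 and 16.21 in D and 15.73, 16.05 and 15.99 in D + P (-0.31 ± 0.17), without overlap, although both other probes had the opposite sign. Of 52 extracellular matrix genes, 1 was higher and 3 lower at that threshold, and 1 higher and 6 lower did not overlap. Vcan, the proteoglycan versican, was at 7.40, 7.13 and 7.09 in D and 6.76, 6.77 and 6.69 in D + P (-0.47 ± 0.14, adjusted p = 0.226). Its D + P arrays lay with C (6.56 to 6.78) and C + P (6.80 to 6.87), and of its other probes the one measured on all 6 arrays was lower by 0.28 and a dim one higher by 1.38. The other 2 lower ones were Thbs1 and Loxl3, a lysyl oxidase whose probe was well above background on none of the D and D + P arrays.

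Some genes were chosen because they had also been assayed by qRT-PCR. Of these 8, 1 had a difference above 0, and 1 was lower and 0 higher at an unadjusted p under 0.05 (median -0.19, and -0.28 without D + P replicate 2). The median was -0.31 with the 75th percentile scaling and -0.05 with the mean of all probes of a gene. Hif1a, the oxygen-regulated transcription factor, was at 11.33, 11.04 and 10.60 in D and 10.27, 10.64 and 10.04 in D + P. The groups overlapped, and the difference was -0.67 ± 0.24 (adjusted p = 0.287), whereas both dimmer Hif1a probes were higher, by 0.14 and 0.82. Rgs2, which shortens G protein signals, was at 12.08, 12.01 and 12.05 in D and 11.25, 11.83 and 11.89 in D + P (-0.39 ± 0.21). Angptl4, an inhibitor of lipoprotein lipase, was higher by 0.48 ± 0.43 with overlap. Differences of Txnip (-0.05), Slc2a4, the insulin-dependent glucose transporter (-0.15), Pdk4, which inhibits pyruvate dehydrogenase (-0.23), and Nppa (-0.17) were all within 1 SE. Of the 4 housekeeping genes of the study, Actb was at 14.88, 14.996 and 14.95 in D and 15.64, 15.15 and 15.19 in D + P. Its groups did not overlap and it was higher by 0.38 ± 0.17. Gapdh was lower by 0.25 ± 0.14, with 5 of its 6 other probes of that sign, Tbp by 0.16 ± 0.31, and Rpl4 was higher by 0.17 ± 0.27.

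The interaction asked whether pargyline acted alike in diabetic and non-diabetic hearts, and immediate early genes were the ones that passed the test. These genes, transcription factors and feedback regulators, are switched on within minutes of a stimulus such as an adrenergic signal, without new protein synthesis. Of 30859 probes 2 passed the adjusted threshold of the interaction (0.00648%), and both were transcription factors of this group. Nr4a1, an orphan nuclear receptor, was at 8.42, 8.49 and 8.44 in C and 12.73, 12.45 and 11.62 in C + P, but at 9.41, 8.85 and 8.45 in D and 8.50, 8.66 and 8.81 in D + P. Every C + P array was above all others, and D and D + P overlapped. The difference was 3.82 without diabetes and -0.25 ± 0.30 with it, and the interaction was -4.07 ± 0.42 (adjusted p = 0.0221). Egr1, a zinc finger factor, was at 7.91, 7.91 and 8.43 in C, 12.37, 11.60 and 11.74 in C + P, 7.76, 7.97 and 7.22 in D and 8.05, 7.86 and 7.63 in D + P. Its interaction was -3.62 ± 0.38 (adjusted p = 0.0221), with differences of 3.82 without diabetes and 0.20 ± 0.27 with it. Leaving out an array kept both signs, but in 10 of the 12 cases Nr4a1 and in 11 of the 12 cases Egr1 was no longer past the threshold. Both were also no longer past it with the replicate number (adjusted p = 0.129 for Nr4a1 and 0.137 for Egr1) or the slide column as a block (0.064 and 0.187). The interaction itself stayed between -4.40 and -3.81 for Nr4a1 and between -3.82 and -3.36 for Egr1 under the 22 alternatives run.

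Most of the group followed these genes. Of 38 immediate early genes tested, 21 were lower and 1 higher in the interaction at an unadjusted p under 0.05 (7.03% of all probes, 4.12% higher and 2.91% lower), with a median of -1.28. The median of C + P against C was 0.89, and that of D + P against D was -0.06 (from -0.11 without D replicate 3 to 0.02 without D replicate 1, and -0.12 with the mean of all probes of a gene), with 3 higher and 3 lower at that threshold. Fos, a subunit of the AP-1 factor, was well above background on none of the D and D + P arrays and at 8.9995, 9.45 and 9.16 in C + P. Fosb and Egr2 were below that mark on the D and D + P arrays as well. Apold1, an endothelial early response gene, was at 7.62, 7.84 and 7.60 in D and 7.36, 7.13 and 7.08 in D + P, lower without overlap (-0.49), and higher by 1.58 in C + P against C. Thbs1, thrombospondin, was lower by 1.21 ± 0.40 in diabetic hearts, with D + P replicate 2 the lowest at 3.63, and higher by 2.11 in non-diabetic hearts. Its difference in diabetic hearts ran from -1.52 to -0.37 under the alternatives run. The other Thbs1 probe was well above background on none of the D and D + P arrays. The 3 members higher in D + P at that threshold were Jun, Cxcl1 and Ier2. Jun, the partner of Fos, was at 10.38, 11.23 and 11.29 in D and 11.80, 11.84 and 11.77 in D + P (0.84 ± 0.25, without overlap), against 0.54 in C + P against C with an interaction of 0.30 ± 0.36, and was 0.55 without D replicate 1. Gadd45g was the 1 member higher in the interaction at an unadjusted p under 0.05 (1.11), at 10.69, 10.68 and 10.68 in D + P and 10.07, 10.32 and 10.42 in D. In C + P against C, 10 probes passed the adjusted threshold (0.0324%), 9 higher (0.0292%) and 1 lower (0.00324%), and 1368 were at an unadjusted p under 0.05 (4.43%), 603 higher (1.95%) and 765 lower (2.48%). TGACG was found upstream of 12 of the 15 members at an unadjusted p under 0.05 in the interaction whose promoters were in the table, Nr4a1 with 4 matches among them.

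**Figure D4:**
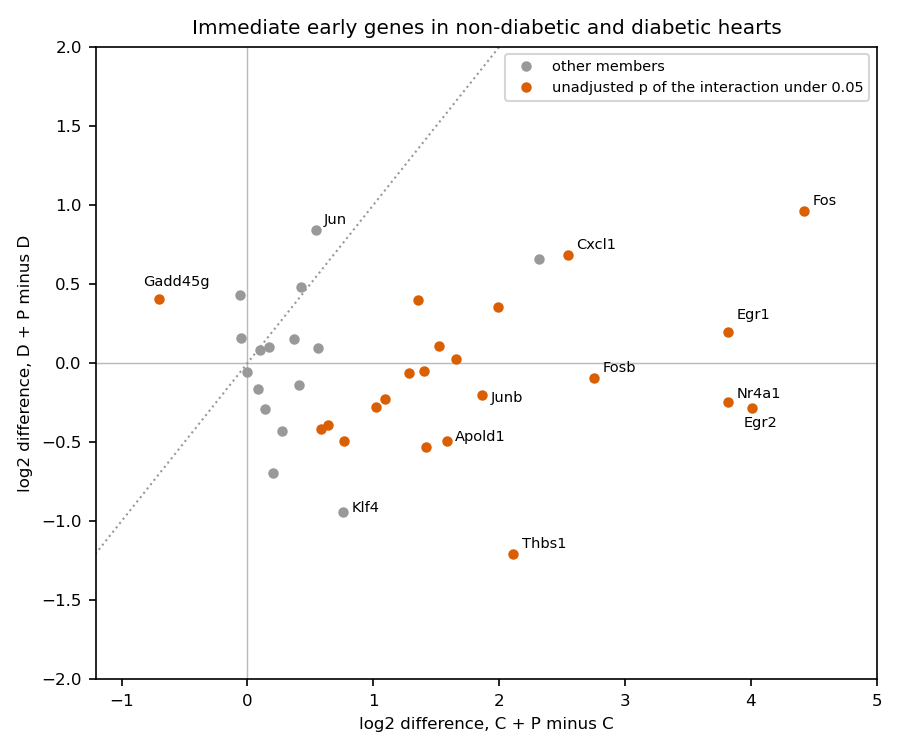
Log2 difference of D + P minus D (vertical axis) against that of C + P minus C (horizontal axis) for 38 immediate early genes, with orange points at an unadjusted p under 0.05 in the interaction and a dotted line of equal differences. Nr4a1 and Egr1 lie near 3.82 on the horizontal axis and near 0 on the vertical axis, and the 2 comparisons share no array but the same pair of slides.

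Markers of blood cells are given beside these comparisons, and their part in the immediate early result was not tested. None passed the adjusted threshold in D + P against D, and at an unadjusted p under 0.05 there were 0 of 8 red cell markers, 1 higher and 1 lower of 9 macrophage markers, and 1 higher and 2 lower of 7 neutrophil and platelet markers. Of the neutrophil and platelet markers 1 was above 0 in D + P against D (median -0.50, with -0.144 without D + P replicate 3 and -0.33 with the normexp correction), the median of C + P against C was 0.76, and 4 were lower and 0 higher in the interaction at an unadjusted p under 0.05. Ppbp, a platelet chemokine, was at 6.08, 6.55 and 6.59 in D and 5.46, 5.53 and 4.11 in D + P. Gp9, a platelet surface glycoprotein, was at 6.19, 5.42 and 5.17 in D and 4.53, 4.75 and 3.85 in D + P, and both genes were lower without overlap. Gp9 was well above background on only 1 of these 6 arrays, and its difference was at least 1.44-fold. S100a9, of neutrophil granules, differed by -0.16 in diabetic and by 1.96 in non-diabetic hearts. The summed level of the list was 23440 to 38390 in D and 39640 to 49600 in D + P, led by Csf3r (0.63), the single member above 0, while probes of Gp1bb, Itga2b and Retnlg were too dim to be tested. Summed macrophage markers were 13680 to 17690 in D and 13860 to 15480 in D + P, and red cell markers 177100 to 210400 and 175900 to 177900.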

How the data were processed

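Hearts of 12 mice were each measured on 1 single-colour Agilent array (200 ng of total RNA, Cy3). The authors extracted spots with Agilent Feature Extraction and deposited each array's scanner output, whose processed signal is a background-subtracted intensity, and a table of quantile normalised values, used here on the log2 scale as an alternative only. Per the file headers, probe coordinates are mm9.

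From the deposited intensity, control spots and outlier spots (0.23%) were left out, the log2 values quantile normalised between arrays, and repeated spots averaged. Following the study's filter, probes positive and significant in at least 50% of the arrays of each group were kept, 30859 of 56605. Symbols came from RefSeq where an accession matched (21176 probes) and otherwise from the files. Groups were taken from the labels. One model with a mean for each group was fitted to all 12 arrays with lmFit and eBayes of limma 3.58.1 (R 4.3.3), leaving 8 residual degrees of freedom, with two-sided p-values adjusted by Benjamini-Hochberg over all tested probes. The ± values beside differences are standard errors. Each array is 1 mouse, so p-values cover the spread between mice, and the number of arrays limits the precision. "At least N-fold" compares the brighter group with the higher of the dim probe's own signal and the lowest signal well above background on each array. Such a bound holds for the processing used, and some alternatives gave smaller differences.

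Named genes were those past the threshold, the 12 largest differences in each direction at an unadjusted p under 0.01 without overlap and well above background in the brighter group, the monoamine oxidases, the study's qRT-PCR, microRNA target and housekeeping genes, and the 3 members of each gene list with the smallest p. The comparison, gene lists and members were chosen with earlier results of these data known, and genes outside the rule, chiefly further list members, were chosen after their values were seen. Alternatives covered scaling, background correction, dim-probe filters, the arrays fitted, array weights, the prior, blocks for replicate number and slide column, the methods' t-test and leaving out each array. Some genes that the rule named are not reported here, but they stay in the counts of their lists. The fit was tested on simulated data. Tables and figures used Python 3.11.15, pandas 2.3.3 and matplotlib 3.10.9.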

Additional observations from a re-analysis of the deposited data

Results flagged for a closer look

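Pargyline effects that differed between diabetic and non-diabetic hearts by the test of the interaction were those of Nr4a1, at -4.07 on the log2 scale, and Egr1, at -3.62, both with an adjusted p of 0.0221 in limma. In both cases all 3 C + P arrays were above all 9 other arrays. Groups of 3 arrays are too small for a test of outlying samples.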

How the results depend on the processing

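The count of 0 probes past the threshold between D + P and D (limma, 4099 at an unadjusted p under 0.05) became 2 with the normexp correction, 9 with no filter on dim probes, 20 with probes well above background on every D or every D + P array, 6 with values not positive and significant set to missing, 2 with an intensity trend and robust prior, and 1 by the methods' t-test with either Bonferroni or Benjamini-Hochberg adjustment. It was 0 under the other scalings, array weights, blocks, the 6 arrays alone and each left-out array, where it ranged from 0 to 0. The stricter filter can admit a probe through its brighter group alone, as it did Smg1 and Adra1a, and lends their differences no support. Smg1 also passed with values not positive and significant set to missing (1.61, adjusted p = 0.042 in limma), a setting that drops dim values. Probes at an unadjusted p under 0.05 numbered 2692 with the 6 arrays alone and 2574 by the methods' t-test. The interaction count of 2 became 4 with normexp, with missing values and with the trend, 5 with no filter, the stricter filter and array weights, 0 with the replicate block and 0 with the slide column, and ranged from 0 to 2 without single arrays. C + P against C went from 10 to 184 with array weights, 6 with the replicate block and 5 with the slide column, and ranged from 4 to 12 without single arrays. Deviations of same-numbered D and D + P arrays had r of 0.160, -0.0218 and 0.0393, against -0.124 to 0.140 for arrays of different numbers. The labels do not say what a number shares, and so few arrays cannot show whether the numbers pair the mice. The spike-in difference was -0.2702 without D replicate 1 and -0.0821 without D + P replicate 2, and ranged from -0.2702 to 0.2639 without single arrays. Of 107 named genes 97 kept 1 direction under all alternatives run, and of 37 gene lists 13 did. Most named genes were chosen by the size, p or lack of overlap of this same difference. Their kept direction therefore lends no support. The causes of these changes were not tested. Probes under a log2 level of 6 had the widest spread, with a median SD of 0.581 in D.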

Other observations

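Of 18 circadian clock genes, 0 were higher and 1 lower in D + P against D at an unadjusted p under 0.05, and 1 higher and 3 lower did not overlap. The median of -0.08 was -0.17 without D replicate 3, and its sign turned without D + P replicate 1 (0.0036), without D + P replicate 3 (0.01) and with the mean of all probes of a gene (0.02), and it was -0.15 with the 75th percentile scaling. Clock, the activator that pairs with BMAL1, was at 9.79, 9.02 and 9.02 in D and 8.69, 7.95 and 8.88 in D + P, lower by 0.77 ± 0.28. A second Clock probe was lower by 0.54 ± 0.18, but another, dim in D and well above background on all 3 D + P arrays, was higher by 0.79 ± 0.24. Ciart, a repressor of that pair, was lower by 0.84 ± 0.43 without overlap, whereas the repressors Per2 and Per3 were at 0.51 ± 0.40 and 0.66 ± 0.43 with overlap. None of 16 glucocorticoid-induced genes was past that p.

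Among markers of other cells, Myl7, the atrial myosin light chain, was lower by 1.18 ± 0.41 but well above background on only 2 of the 6 arrays, and the median of 4 atrial markers, -0.22, was 0.119 without D + P replicate 3 and -0.14 with the mean of all probes of a gene. Cd163 and Cd14, both of macrophages, went in opposite directions (0.74 ± 0.26 and -0.40 ± 0.18), with a median of -0.23 over 9 markers (-0.14 without D replicate 2 and -0.10 with the normexp correction). Cd4, of T cells, was lower by 0.48 ± 0.16, and Mbp, of myelin, by 0.72 ± 0.32. Median differences were 0.03 for 10 fibroblast, 0.05 for 6 lymphocyte, 0.08 for 6 nerve, 0.00 for 3 mesothelial, -0.01 for 8 skeletal muscle and -0.11 for 7 adipocyte markers, and each of these 6 medians changed sign when 1 of the D or D + P arrays was left out.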
